A study of Mus musculus with 4 samples.

Results

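Costimulatory and checkpoint receptors set how strongly a T cell answers its antigen, and 8 of their genes were examined here in hepatic CD4+ T cells: *Ctla4*, *Tigit*, *Lag3*, *Pdcd1*, *Havcr2*, *Icos*, *Cd28* and *Cd226*. They were taken by symbol and are 8 of the 32285 genes in the count tables of both libraries. The cells were sorted from livers of male mice kept for 8 weeks on a choline-deficient diet with 60 kcal% fat and 0.1% methionine, a model of metabolic dysfunction-associated steatohepatitis (MASH). The library labelled WT came from 2 mice and the library labelled dKO from 2 mice with floxed *Nr4a1* and *Nr4a2* and *Cd4*-Cre, which acts in the T cell lineage from the thymus on, so that CD8+ T cells of these mice carry the deletion too. Cells of the mice in a pool cannot be told apart, so each genotype is 1 library with no replicate, no test between genotypes was run, and genotype, pool and library cannot be told apart. The question addressed is where in the CD4+ T cell compartment each receptor is transcribed and how its level lies in each library.

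CD28 on the T cell and its inhibitory relative CTLA-4 bind the same ligands, CD80 and CD86, on antigen-presenting cells. CTLA-4 binds them more tightly and, on regulatory T cells (Tregs), removes them from the presenting cell. TIGIT and CD226 form a comparable pair for the ligands CD155 and CD112, with TIGIT inhibitory and CD226 activating. PD-1 (encoded by *Pdcd1*), LAG-3 and TIM-3 (encoded by *Havcr2*) are inhibitory receptors known from chronically stimulated T cells, and ICOS is a costimulator of the CD28 family that supports follicular helper cells and Tregs.

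The promoters of *Ctla4* and *Tigit* are shown as examples of members at least 2-fold higher in Tregs than in conventional cells of each library whose window holds the NFAT core. *Havcr2* met the same 2-fold limit and its window holds no match. The 250 bases before the RefSeq start site (GRCm38.p6, 5′ to 3′ on the strand of the gene) lie at chr1:60908775-60909024 on the plus strand for *Ctla4* and at chr16:43664185-43664434 on the minus strand for *Tigit*. Capitals mark matches of the NFAT core GGAAA, here on the opposite strand and therefore read as TTTCC.
Ctla4: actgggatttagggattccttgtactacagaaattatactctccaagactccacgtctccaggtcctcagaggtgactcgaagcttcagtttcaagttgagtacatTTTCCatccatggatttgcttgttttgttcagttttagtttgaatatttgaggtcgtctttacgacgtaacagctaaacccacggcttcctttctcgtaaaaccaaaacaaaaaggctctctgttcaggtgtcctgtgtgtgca
Tigit: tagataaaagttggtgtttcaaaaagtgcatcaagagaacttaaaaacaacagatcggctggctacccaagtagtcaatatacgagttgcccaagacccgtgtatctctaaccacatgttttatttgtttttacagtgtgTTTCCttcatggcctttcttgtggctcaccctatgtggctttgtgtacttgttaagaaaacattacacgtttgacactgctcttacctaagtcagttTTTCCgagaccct
The *Ctla4* match lies 144 to 140 bases before the start, and the *Tigit* matches 110 to 106 and 13 to 9 bases before it. Of the 8 genes, 4 had an entry in the promoter table (also *Pdcd1* with 2 matches of GGAAA and *Havcr2* with 0), and 55.6% of all 32851 promoters of that length hold the motif. None of the 4 windows held AAAGGTCA (the NBRE, the Nr4a site), TGACTCA (AP-1) or TGTTTAC (forkhead) on either strand, and 1.34%, 4.46% and 3.17% of all promoters did. In GENCODE M21 the *Ctla4* window is intronic to a longer processed transcript of the same gene and holds no exon.

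In that annotation (GRCm38) *Cd28* (ENSMUSG00000026012, chr1:60716800-60773359), *Ctla4* (ENSMUSG00000026011, chr1:60887000-60915832) and *Icos* (ENSMUSG00000026009, chr1:60977927-61000320) lie side by side on the plus strand within 283521 bases. *Pdcd1* (ENSMUSG00000026285) lies further along the same chromosome, at chr1:94038305-94052553 on the minus strand. *Tigit* (ENSMUSG00000071552) spans chr16:43648867-43664146, *Lag3* (ENSMUSG00000030124) chr6:124904361-124911705, both on the minus strand, and *Havcr2* (ENSMUSG00000020399) chr11:46454935-46481255 on the plus strand. The pseudogene *Rpl18-ps1* overlaps *Ctla4* and the gene model *Gm37039* overlaps *Icos*, so UMIs of these pairs may have been split.

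RNA was captured in droplets with a 5′ kit whose unique molecular identifiers (UMIs) let each captured molecule count once. The tables hold 10602 and 17645 cells with 23494155 and 37966611 UMIs, of which 7073 and 11366 passed as T cells (throughout, a pair of values is the library labelled WT and then the library labelled dKO). T cells were gated by marker UMIs. A *Foxp3* UMI made a Treg (398 and 3015 cells), and a UMI of *Cd40lg*, *Ifng*, *Il17a*, *Il17f* or *Il2* without *Foxp3* or *Ikzf2* made a conventional cell (2755 and 1368). UMIs of at least 2 genes from a list of naive cell markers, among them *Ccr7*, *Lef1* and *S1pr1*, with no effector or Treg marker, made a naive cell (884 and 422). Cells with at least 2 of 10 cell cycle genes were kept apart as cycling Tregs (75 and 214) and cycling conventional cells (347 and 103), and the remaining 2614 and 6244 T cells are called other T cells. *Cd4* was at 218 and 951 CPM in Tregs and 288 and 806 CPM in conventional cells, and *Cd8a* had 0 UMIs in Tregs and 1 and 0 in conventional cells. *Cd8b1* was at 15.7 and 21.3 CPM in Tregs and 5.89 and 6.67 CPM in conventional cells, against 314 and 331 CPM in the plasmacytoid dendritic cell-like cells. *Nr4a1* was at 1079 and 2308 CPM and *Nr4a2* at 189.8 and 443 CPM in Tregs, so both targeted genes go against the dKO label. Whether the labels were exchanged was not tested. These counts give the gene of a UMI and not its exon, and RNA that lacks the deleted part would still be counted. The libraries share 245 cell barcodes (2.31% and 1.39% of their cells) and 0 clonotypes. Levels are UMIs summed over the cells of a gate as counts per 1000000 UMIs of that gate (CPM) with exact 95% Poisson intervals, and ratios have exact conditional binomial intervals. Both cover counting error only and not the difference between mice. A gene was called at a ratio of at least 2-fold if it had at least 20 UMIs in the groups compared.

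By summed UMIs the 5 inhibitory receptors were higher in Tregs than in conventional T cells of both libraries, with few UMIs of *Lag3* in the library labelled WT, and *Icos* by little, whereas *Cd28* and *Cd226* were lower. *Ctla4* had 1371 CPM (1300 to 1444, 1401 UMIs) in Tregs and 305 CPM (292 to 320) in conventional cells of the library labelled WT, and 2389 CPM (2350 to 2429, 13802 UMIs) and 694 CPM (660 to 729) in those of the library labelled dKO. Tregs were thus 2.17 (2.06 to 2.27) and 1.78 (1.71 to 1.86) higher on the log2 scale, or 4.49-fold and 3.44-fold. *Tigit* had 268 CPM (237 to 302) in Tregs and 93.8 CPM (86.1 to 102) in conventional cells labelled WT, and 949 CPM (924 to 974) and 260.0 CPM (239 to 282) in those labelled dKO, with log2 ratios of 1.52 (1.30 to 1.73) and 1.87 (1.74 to 1.99). In neither gene did the intervals of Tregs and conventional cells overlap.

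*Lag3*, whose product binds MHC class II, had 15.7 CPM (8.95 to 25.4, 16 UMIs) in Tregs and 3.37 CPM (2.06 to 5.20, 20 UMIs) in conventional cells labelled WT. The same gates of the library labelled dKO had 161 CPM (151 to 172, 931 UMIs) and 70.2 CPM (59.7 to 82.1, 158 UMIs). The log2 ratios of Tregs over conventional cells were 2.22 (1.17 to 3.24) and 1.2 (0.95 to 1.45). *Havcr2*, which binds galectin-9 and phosphatidylserine, had 29.4 CPM (19.8 to 41.9) and 4.71 CPM (3.13 to 6.81) in Tregs and conventional cells labelled WT and 55.9 CPM (50 to 62.4) and 23.1 CPM (17.3 to 30.3) in those labelled dKO. Its log2 ratios were 2.64 (1.85 to 3.44) and 1.27 (0.85 to 1.73). *Pdcd1* differed least among the inhibitory members. Tregs labelled WT had 209 CPM (182 to 239) and conventional cells 103 CPM (94.5 to 111), a log2 ratio of 1.03 (0.80 to 1.26), and the same gates labelled dKO had 229 CPM (216 to 241) and 179 CPM (162 to 197), a log2 ratio of 0.35 (0.19 to 0.52). In 6 of 14 alternative settings the WT ratio of *Pdcd1* was below 2-fold.

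*Icos* had 867 CPM (811 to 926) in Tregs and 595 CPM (576 to 615) in conventional cells labelled WT, and 792 CPM (769 to 815) and 702 CPM (668 to 737) in those labelled dKO, log2 ratios of 0.54 and 0.17. *Cd28* stood at 459 CPM (418 to 502) in Tregs against 642 CPM (622 to 662) in conventional cells of the library labelled WT. The values of the library labelled dKO were 351 CPM (336 to 367) and 485 CPM (457 to 515), so that Tregs were lower by nearly the same log2 ratio, -0.48 and -0.47. *Cd226*, the activating competitor of TIGIT (ENSMUSG00000034028, chromosome 18 from 89176967 to 89272229, plus strand), had 131 CPM (110 to 155) in Tregs and 239 CPM (227 to 252) in conventional cells labelled WT. The same gates labelled dKO had 54.5 CPM (48.7 to 60.9) and 115 CPM (102 to 130), log2 ratios of -0.87 (-1.13 to -0.61) and -1.08 (-1.32 to -0.84).

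**Figure D1:**
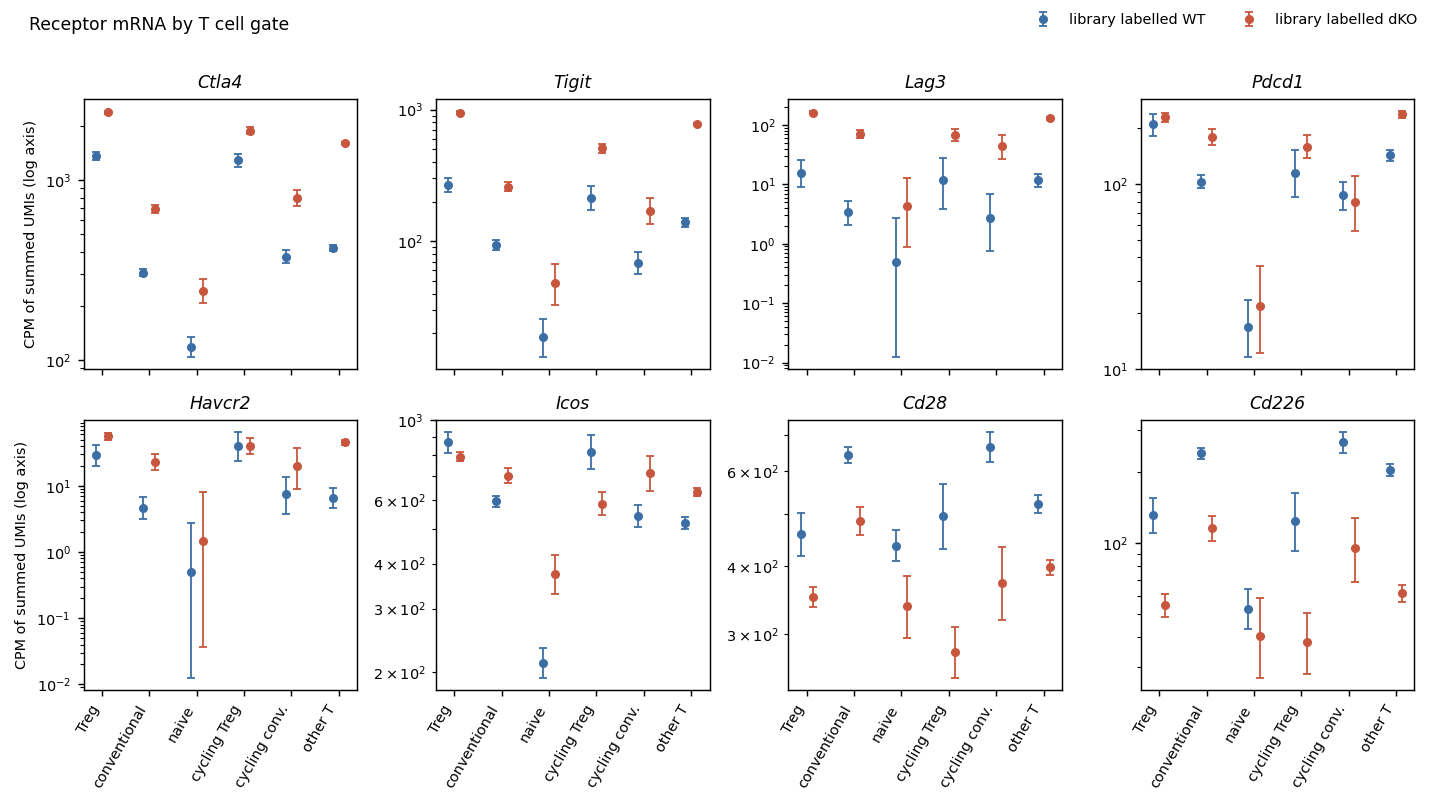
Level of each member (CPM on a log axis, 95% Poisson interval of counting error) in the T cell gates of the library labelled WT and the library labelled dKO, 1 library each. *Ctla4*, *Tigit* and *Lag3* are highest in Tregs of the library labelled dKO (2389, 949 and 161 CPM), whereas *Cd28* and *Cd226* are highest in conventional or cycling conventional cells.

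In the library labelled WT 5 of the 8 members were at least 2-fold higher in Tregs than in conventional cells and 0 lower, while 4.89% of 10380 genes were called higher and 5.15% lower. For *Lag3* and *Havcr2*, 2 of these 5, the conventional cells had 20 and 28 UMIs at levels near those of some non-T cells, so the size of their ratios is not read. For the library labelled dKO 4 were higher and 1, *Cd226*, was lower, against 8.67% and 4.08% of 10539 genes. The median log2 ratio of the members was 1.27 and 0.78, and that of all genes tested -0.01 and 0.13. When every other T cell without *Foxp3* and *Ikzf2* UMIs was counted as conventional, 1 member stayed at least 2-fold higher in Tregs of the library labelled dKO, *Ctla4*. The other T cells of that library had 1610.1 CPM of *Ctla4*, 777 CPM of *Tigit* and 129 CPM of *Lag3*, between its Tregs and its conventional cells, and their median of 1282 UMIs per cell was below the 1555 of its Tregs. Clones linked the gates, since of 453 cells in the 11 clones of at least 10 cells with at least 20% *Foxp3*+ cells in that library, 165 were in the Treg gate, 262 among other T cells and 4 in the conventional gate.

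Between the libraries, Tregs labelled dKO had more *Ctla4*, *Tigit*, *Lag3* and *Havcr2* and less *Cd28* and *Cd226* than Tregs labelled WT. The log2 ratio was 3.36 (2.66 to 4.18) for *Lag3*, a 10.3-fold difference that rests on 16 UMIs in the Tregs labelled WT, and 1.82 (1.65 to 2.00) for *Tigit*. It was 0.93 (0.39 to 1.52) for *Havcr2* and 0.80 (0.72 to 0.88) for *Ctla4*, whose 1.74-fold difference misses the 2-fold limit. *Pdcd1* stood at 0.13 (-0.08 to 0.34), an interval that covers 0, and *Icos* at -0.13 (-0.23 to -0.03). *Cd28* was at -0.39 (-0.53 to -0.24) and *Cd226* at -1.27 (-1.56 to -0.96), which is 2.40-fold lower. The *Cd226* call was lost with a TRB contig required (-0.88) and with 1 cell per clonotype (-0.79). In all, 2 of 8 members were called higher and 1 lower, against 6.77% and 5.22% of 10338 genes. *Cd4* was also higher in Tregs and conventional cells labelled dKO, as given above. In plasmacytoid dendritic cell-like cells *Ctla4* had 11.5 and 26.2 CPM and *Tigit* 14.6 and 41.5 CPM. There *Lag3* had 169 and 231 CPM, *Havcr2* 7.51 and 7.72, *Cd28* 62.9 and 23.3 and *Cd226* 13.1 and 1.67 CPM. The part of these differences that cells of a library share was not tested.

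Conventional T cells differed between the libraries in the same direction for these members, with *Pdcd1* and *Icos* higher as well. *Lag3* had a log2 ratio of 4.38 (3.71 to 5.13) over 20 UMIs in the cells labelled WT, *Havcr2* of 2.29 (1.60 to 3.01), *Tigit* of 1.47 (1.30 to 1.64) and *Ctla4* of 1.18 (1.08 to 1.28). *Pdcd1* reached 0.80 (0.62 to 0.99), *Icos* 0.24 (0.15 to 0.32), *Cd28* -0.40 (-0.50 to -0.31) and *Cd226* -1.06 (-1.25 to -0.86). Called higher were 4 of 8 members and called lower 1, against 2.3% and 5.39% of 10572 genes. Among the 4 are *Lag3* and *Havcr2*, with 20 and 28 UMIs in conventional cells labelled WT, and the size of their ratios is not read. With 1 cell per clonotype *Lag3* and *Tigit* remained higher, where 2.44% of all genes were called higher, and *Havcr2* had under 20 UMIs. In that setting the calls of *Ctla4* (0.81) and *Cd226* (-0.90) were lost, the latter also with TMM factors (-0.98). Among conventional cells from clones in which no cell had a *Foxp3* or *Ikzf2* UMI (196 and 43 cells), *Ctla4* stood at 1.46 (1.0 to 1.91) and *Tigit* at 1.59 (0.69 to 2.43), while *Pdcd1* was at -0.40 (-1.67 to 0.66), and *Lag3* and *Havcr2* had under 20 UMIs. Whether the *Cd226*, *Ctla4* or any other difference belongs to the genotype was not tested, with 1 library on each side.

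Cells other than T cells hold some of these RNAs. *Lag3* had 169 and 231 CPM in plasmacytoid dendritic cell-like cells (at least 2 *Siglech* UMIs, 1039 and 3115 cells), where *Siglech* had 2977 and 2213 CPM. In Tregs *Siglech* had 6.85 and 6.58 CPM and in conventional cells 5.55 and 10.7 CPM. The T cell gate itself limits such markers, since it allowed fewer than 3 UMIs of other cell types per cell, so these values are bounded by the gate. *Havcr2* had 63.6 and 68.3 CPM in myeloid-like cells, in which *Lyz2* had 14186 and 14069 CPM against 23.5 and 31.0 CPM in Tregs. *Havcr2* in conventional cells labelled WT (4.71 CPM) lay below the 7.51 CPM of plasmacytoid dendritic cell-like cells of that library, and *Lag3* there (3.37 CPM) near the 2.55 CPM (1 UMI) of its myeloid-like cells. The size of the ratios over those conventional cells is therefore not read. *Ctla4* had at most 78.4 CPM and *Tigit* at most 41.5 CPM in these non-T gates.

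**Figure D2:**
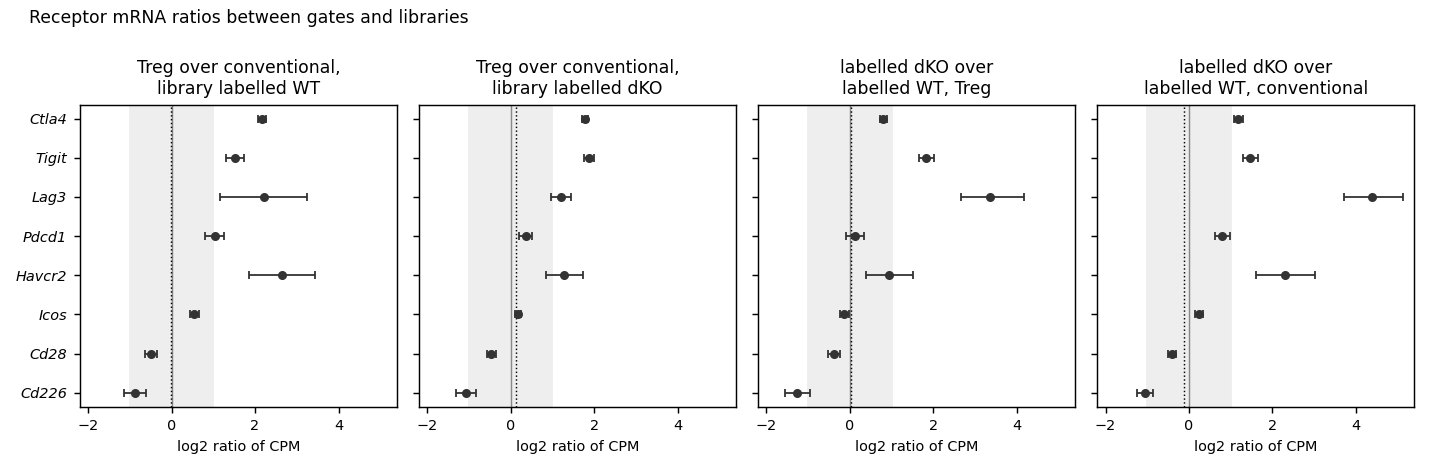
Log2 ratio of each member with its 95% interval of counting error, for Tregs over conventional cells in each library and for the library labelled dKO over the library labelled WT within Tregs or conventional cells. The grey band holds ratios within 2-fold, the solid line marks 0 and the dotted line the median of all genes tested. *Cd28* and *Cd226* lie below 0 in both comparisons (*Cd226* at -1.27 between Tregs of the libraries), and the intervals of *Lag3* are wide wherever a gate of the library labelled WT enters, which rests on 16 UMIs in Tregs and 20 in conventional cells.

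Naive cells were lower than conventional cells in each member, least in *Cd28*, the costimulator that resting T cells carry. *Cd28* had 437 CPM in naive cells of the library labelled WT, -0.55 (-0.66 to -0.45) against conventional cells on the log2 scale, and in the library labelled dKO 338 CPM and -0.52. Of the 8 members 7 were at least 2-fold lower in naive cells labelled WT and 6 in those labelled dKO, where *Icos* (-0.91) also missed the limit, against 13.9% of 10497 and 12% of 8511 genes. Among the 7 are *Lag3* and *Havcr2*, with 20 and 28 UMIs in conventional cells labelled WT. Those levels were near those of some non-T cells, so the size of these ratios is not read. *Ctla4* had 119 and 242 CPM, *Tigit* 18.8 and 47.8 CPM and *Pdcd1* 16.8 and 21.7 CPM in naive cells. In plasmacytoid dendritic cell-like cells *Pdcd1* had 10.7 and 18.5 CPM, with intervals that overlap those of naive cells. Its level in naive cells is therefore not read as expression. *Lag3* and *Havcr2* had 1 UMI each in naive cells labelled WT and 3 and 1 UMIs in those labelled dKO. Between the libraries, 2 of the 6 members with enough UMIs were called higher in naive cells labelled dKO, *Ctla4* at 1.03 (0.74 to 1.32) and *Tigit* at 1.35 (0.63 to 2.06), against 2.34% of 8210 genes. *Tigit* also differed between the libraries in plasmacytoid dendritic cell-like cells (14.6 and 41.5 CPM), so its difference in naive cells (18.8 and 47.8 CPM) is at background and is not read as expression. *Icos* stood at 0.82 (0.59 to 1.04).

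Cycling cells differed by under 2-fold from the non-cycling cells of the same gate in most members. In the library labelled WT no member changed by 2-fold between Tregs and cycling Tregs (6.49% of 7350 genes were higher and 6.69% lower) or between conventional and cycling conventional cells (6.51% and 6.46% of 10493). In the library labelled dKO cycling Tregs were lower in each member, from -0.34 for *Ctla4* and *Cd28* to -0.90 (-1.03 to -0.79) for *Tigit* and -1.24 (-1.58 to -0.92) for *Lag3*, the 1 member called, where 6.65% and 11% of 10424 genes were called higher and lower. The median log2 ratio of all genes tested was -0.17 there. *Lag3* had 68.0 CPM and *Tigit* 507 CPM in those cycling Tregs. Cycling conventional cells of that library were at least 2-fold lower in 1 member, *Pdcd1* at -1.17 (-1.70 to -0.68) with 79.4 CPM, and 8.87% and 12.2% of 8479 genes were called higher and lower. Cycling cells were deeper, with medians of 5306 and 5174.5 UMIs per cycling Treg against 2050 and 1555 per Treg, and the part of this in the CPM was not tested.

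Among the T cell gates the order of levels was the same in both libraries for *Ctla4* alone, and the ranks here leave out the non-T cells, where *Lag3* (plasmacytoid dendritic cell-like) and *Havcr2* (myeloid-like) had a higher level than in any T cell gate. *Ctla4* was highest in Tregs, followed by cycling Tregs, whose intervals overlapped in the library labelled WT (1371 and 1293 CPM) and not in the other (2389 and 1890.3 CPM). *Tigit* was highest in Tregs of both libraries, and in the library labelled dKO other T cells came second, above cycling Tregs. *Lag3* was highest in Tregs of both libraries, overlapping with cycling Tregs labelled WT (11.9 CPM) and not with those labelled dKO (68.0 CPM). *Havcr2* was highest in cycling Tregs labelled WT (40.6 CPM) and in Tregs labelled dKO (55.9 CPM), each overlapping with the next gate. *Cd28* was highest in cycling conventional cells labelled WT (664 CPM), which overlapped with conventional cells, and in conventional cells labelled dKO (485 CPM). *Pdcd1* ranked first in Tregs labelled WT, whereas in the library labelled dKO other T cells (238 CPM) and Tregs (229 CPM) overlapped. *Icos* was highest in Tregs of both libraries and overlapped with cycling Tregs labelled WT (818 CPM) and cycling conventional cells labelled dKO (713 CPM). *Cd226* was highest in conventional and cycling conventional cells, which overlapped in both libraries (239 and 266 CPM, then 115 and 94.9 CPM).

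The share of cells with a UMI was compared at an equal depth of 1000 UMIs per cell, reached by random thinning, which kept 352 and 2512 Tregs and 2470 and 1206 conventional cells. *Ctla4* was found in 61.1% and 80.4% of Tregs and in 20.6% and 39.6% of conventional cells (unthinned 75.6%, 88.4%, 31.3% and 48.1%). *Tigit* was found in 21.6% and 57.0% of Tregs and 8.26% and 17.7% of conventional cells (unthinned 38.2%, 72.2%, 15.2% and 25.3%). In the plasmacytoid dendritic cell-like cells, with deeper medians of 2386 and 2930.5 UMIs before thinning, the shares were 1.69% and 2.28% for *Ctla4* and 0.482% and 3.70% for *Tigit*. The 3.65% of naive cells with *Tigit* in the library labelled dKO is at that background and is not read as expression.

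*Lag3* was found in 1 of 352 Tregs labelled WT (0.284%) and in 0.445% of conventional cells labelled WT, against 1 of 137 myeloid-like cells (0.73%, 0.018% to 4.0%), so that at this depth no order of these shares is read. At 2000 UMIs per cell the shares were 3.86% (8 of 207 Tregs), 0.426% of conventional cells and 0 of 62 myeloid-like cells, with an exact upper bound of 5.78%. *Lag3* was found in the library labelled dKO in 14.0% of Tregs and 4.56% of conventional cells, against 0.873% of myeloid-like cells. *Havcr2* was found in 2.27% and 4.82% of Tregs and 0.445% and 1.74% of conventional cells, against 0.361% and 0.644% of plasmacytoid dendritic cell-like cells. *Pdcd1* was found in 13.4% and 17.1% of Tregs and 8.95% and 12.4% of conventional cells. *Icos* was found in 46.3% and 48.2% of Tregs and 38.4% and 41.4% of conventional cells, and *Cd28* in 33.5% and 27.6% of Tregs and 43.8% and 37.1% of conventional cells. *Cd226* was found in 13.4% and 4.26% of Tregs and 22.0% and 10.7% of conventional cells, so that conventional cells had the larger share in both libraries. The plasmacytoid dendritic cell-like cells had shares of 1.2% and 1.67% for *Pdcd1*, 0.964% and 0.74% for *Icos*, 5.42% and 2.12% for *Cd28* and 1.2% and 0.0644% for *Cd226*.

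**Figure D3:**
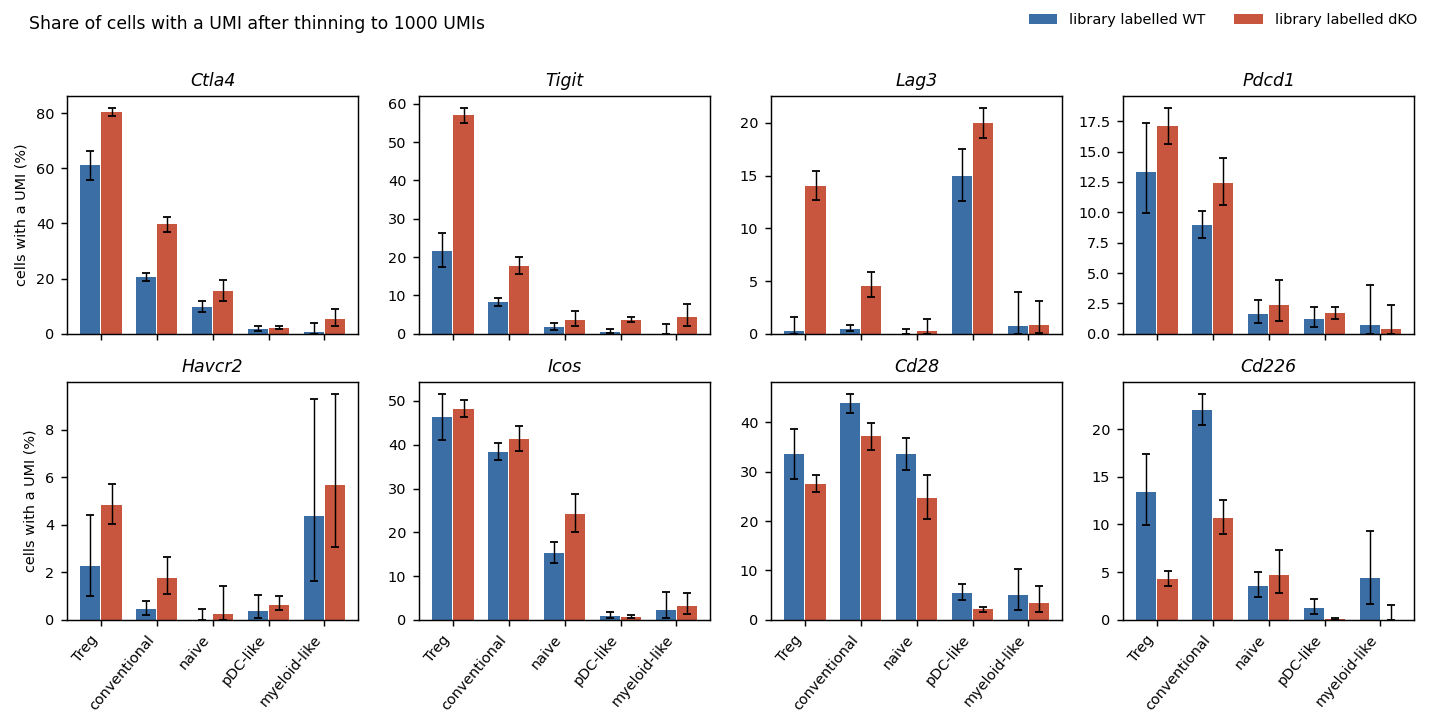
Percent of cells with at least 1 UMI of each member after thinning to 1000 UMIs per cell, with exact 95% Clopper-Pearson intervals, for T cell gates and the non-T gates of each library. *Ctla4* reaches 80.4% and *Tigit* 57.0% of Tregs labelled dKO, and *Lag3* is found in 14.9% and 20% of plasmacytoid dendritic cell-like cells.

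Several members were often found in the same Treg. At 1000 UMIs per cell a Treg held UMIs of 1.92 and 2.53 of the 8 members on average, a conventional cell of 1.43 and 1.65 and a naive cell of 0.655 and 0.755. At least 3 members were found in 31.0% and 50.9% of Tregs and none in 12.8% and 3.46%. In Tregs labelled dKO, 69.2% of the 351 cells with *Lag3* also had *Tigit*, against 55.1% of the cells without *Lag3*. *Lag3* and *Havcr2* met in 29 Tregs of that library where independence gives 16.9, and *Lag3* and *Cd226* in 9 where it gives 15.0. In Tregs labelled WT, 38.3% of cells with *Pdcd1* had *Tigit* against 19% of cells without it, while in Tregs labelled dKO the shares were 59.4% and 56.6%. These pairs were chosen after their values were seen. Of the pairs expected in at least 5 Tregs, 9 of 15 and 22 of 28 had observed counts between 0.8 and 1.2 times those of independence. Cells of a library are not replicates, so these counts carry no test.

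The members that compete for ligands shifted against each other. A ratio of UMIs between genes depends on how each is captured, so only its differences between gates and libraries are read. *Tigit* had 2.04 UMIs (1.66 to 2.53) per *Cd226* UMI in Tregs labelled WT and 17.4 (15.5 to 19.6) in Tregs labelled dKO, and 0.392 (0.355 to 0.432) and 2.26 (1.95 to 2.62) in conventional cells. Tregs exceeded conventional cells by 2.38 (2.05 to 2.71) and 2.95 (2.68 to 3.21) on the log2 scale, or 5.22-fold and 7.70-fold. *Ctla4* had 2.99 UMIs (2.69 to 3.32) and 6.81 UMIs (6.50 to 7.13) per *Cd28* UMI in Tregs and 0.476 and 1.43 in conventional cells, a log2 difference of 2.65 (2.48 to 2.82) and 2.25 (2.12 to 2.38). With every other T cell without *Foxp3* and *Ikzf2* UMIs as conventional, the differences in the library labelled dKO were smaller, 1.71 for *Tigit* per *Cd226* and 1.63 for *Ctla4* per *Cd28*. *Icos* had 1.89 and 2.26 UMIs per *Cd28* UMI in Tregs and 0.927 and 1.45 in conventional cells. All 3 ratios were higher in the library labelled dKO in both gates.

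T cells that share both receptor chains are taken to descend from 1 cell, and 2057 and 2206 T cells fell into 1360 and 1270 such clonotypes. In the clone-size comparison below, the 248-cell clone gave 88 of 140 Tregs labelled dKO. The 68-cell clone gave 23 of 146 conventional cells labelled WT, fewer than the 35 of the 51-cell clone, which is not printed. Shown are the assembled TRA and TRB CDR3 (5′ to 3′, no part in capitals) of the 68-cell clone in the library labelled WT and of the 248-cell and 55-cell clones in the library labelled dKO.
WT 68-cell clone, TRAV7D-5 and TRAJ39: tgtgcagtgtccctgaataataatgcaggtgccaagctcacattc
WT 68-cell clone, TRBV13-1 and TRBJ2-2: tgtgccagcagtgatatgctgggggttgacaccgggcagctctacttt
dKO 248-cell clone, TRAV6-1 and TRAJ30: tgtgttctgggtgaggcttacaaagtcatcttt
dKO 248-cell clone, TRBV13-1 and TRBJ2-4: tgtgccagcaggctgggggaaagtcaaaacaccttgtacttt
dKO 55-cell clone, TRAV6-7-DV9 and TRAJ49: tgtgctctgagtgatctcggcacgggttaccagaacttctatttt
dKO 55-cell clone, TRBV1 and TRBJ2-1: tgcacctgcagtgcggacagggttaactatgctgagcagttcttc

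Among Tregs of the library labelled dKO, *Tigit* was higher and *Cd226* lower in clones of at least 20 cells than in clones of 1 cell. *Tigit* had 737, 878, 1089 and 1372 CPM in clones of 1, 2 to 4, 5 to 19 and at least 20 cells (290, 103, 94 and 140 Tregs), and *Cd226* had 73.7, 58.2, 34.6 and 15.7 CPM (58, 13, 7 and 4 UMIs). Intervals of neighbouring classes overlapped in both genes, so the single steps are not read. Between the ends of this series the log2 ratio was 0.90 (0.70 to 1.09) for *Tigit* and -2.23 (-4.16 to -0.80) for *Cd226*, which rests on 4 and 58 UMIs. *Lag3* stood at 0.79 (0.31 to 1.27), with 231 and 133 CPM, and *Ctla4* at 0.18 with 2481 and 2185 CPM. *Pdcd1*, *Icos* and *Cd28* lay between -0.06 and 0.09, and *Havcr2*, with 10 UMIs in the large clones, at -0.51. The 248-cell clone gave 88 of the 140 Tregs, so most of these cells belong to 1 clone. Median depth went from 2286 UMIs per Treg in clones of 1 cell to 1527 in the large clones, and its part in the levels was not tested. At the 2-fold limit 0 members were higher and 1 was lower, against 3.02% and 6.18% of 6225 genes. Without the largest clone, or with clonotypes by TRB alone, 1 member was higher, *Lag3* at 1.2 (0.55 to 1.81) and 1.13 (0.71 to 1.55), against 4.94% and 2.89% of all genes.

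Conventional cells of the library labelled WT went another way in *Ctla4* and *Cd226*. *Ctla4* had 379 CPM in clones of 1 cell and 245 CPM in clones of at least 20 cells (345 and 146 cells), a log2 ratio of -0.63 (-1.0 to -0.28). *Cd226* had 182 and 298 CPM, a log2 ratio of 0.71 (0.34 to 1.08), and *Pdcd1* 81.1 and 127 CPM, a log2 ratio of 0.65 (0.07 to 1.21). *Tigit*, *Icos* and *Cd28* lay between -0.02 and 0.15. None of the 6 members with enough UMIs reached 2-fold, where 2.84% and 5.95% of 6829 genes were called higher and lower. Ratios were not taken for the matching sets, as large clones held 6 Tregs labelled WT and 19 conventional cells labelled dKO. In those conventional cells, clones of 1 cell and of at least 20 had 255 and 892 CPM of *Tigit* and 661 and 1494 CPM of *Ctla4*. *Lag3* had 16.4 and 580 CPM (5 and 26 UMIs) and *Cd226* 98.2 and 0 CPM (30 and 0 UMIs). These genes went as in Tregs of that library, whereas *Havcr2* (5 and 6 UMIs), *Pdcd1* and *Cd28* did not. A difference between the gates was not tested.

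**Figure D4:**
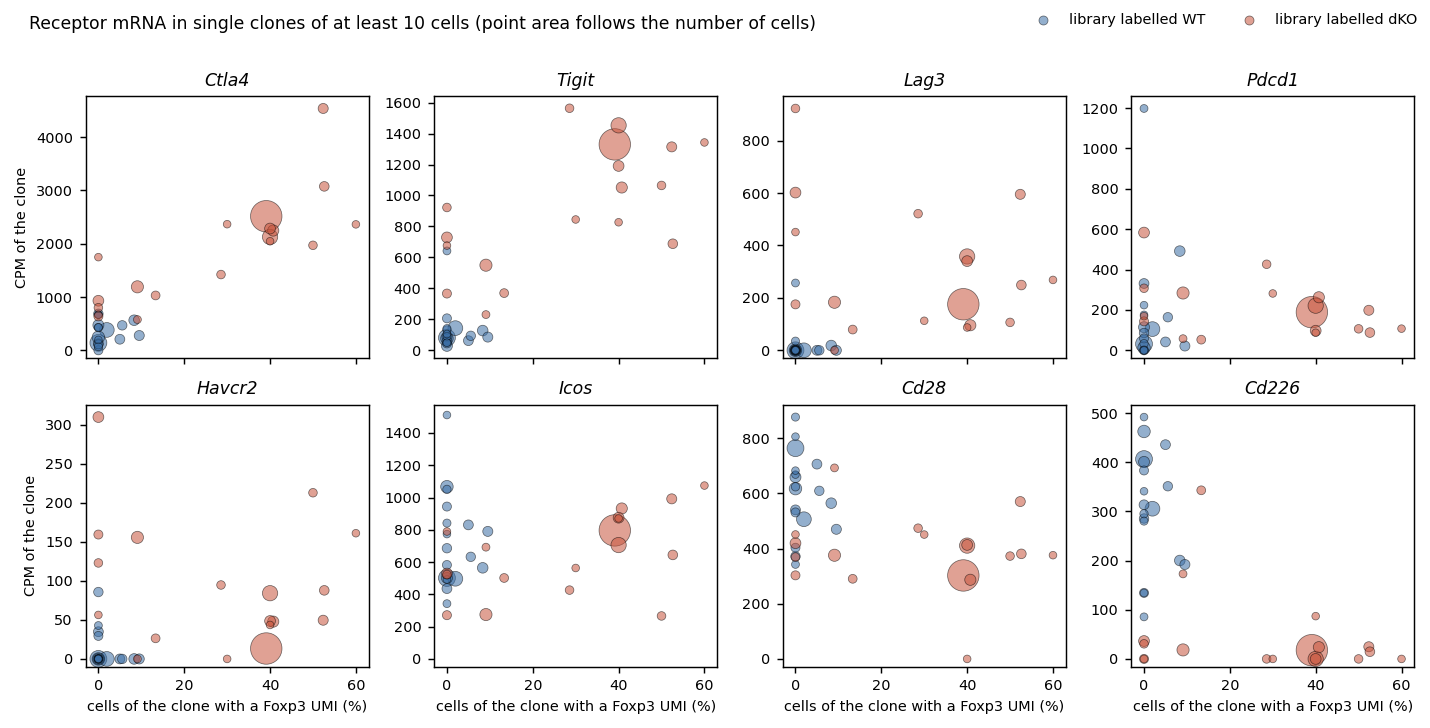
Level of each member (CPM) in the single clones of at least 10 cells against the percent of cells with a *Foxp3* UMI in the clone, 1 point per clone with its area following the number of cells. Clones with at least 20% *Foxp3*+ cells, all of the library labelled dKO, lie above the conventional clones of the library labelled WT in *Ctla4* (1421 to 4537 against 0 to 686 CPM) and below all of them but 1 in *Cd226*.

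Single clones are given by library and share of *Foxp3*+ cells, which differ together between the sets compared here. The 248-cell clone of the library labelled dKO (39.1% *Foxp3*+ cells) had 2515 CPM of *Ctla4*, 1330.0 CPM of *Tigit*, 176 CPM of *Lag3* and 17.8 CPM of *Cd226*. The 55-cell clone (40.0% *Foxp3*+ cells) had 2127, 1453, 358 and 0 CPM of these genes. The 68-cell clone of the library labelled WT (0% *Foxp3*+ cells) had 140 CPM of *Ctla4*, 81.3 CPM of *Tigit* and 407 CPM of *Cd226*, with 0 UMIs of *Lag3* in 221312. Over the 11 *Foxp3*-rich clones of at least 10 cells in the library labelled dKO, *Tigit* ran from 688 to 1563 CPM (median 1191) and *Cd226* from 0 to 87.1 CPM, at 0 in 6 clones. Over the 14 conventional clones of that size in the library labelled WT, *Tigit* ran from 28.6 to 642 CPM (median 88.3) and *Cd226* from 85.6 to 492 CPM (median 309.6), and *Lag3* was at 0 in 12 clones. The next largest clones labelled WT, of 51 and 35 cells, had 382 and 244 CPM of *Ctla4* and 306 and 463 CPM of *Cd226*, and the 33-cell clone labelled dKO had 1191 CPM of *Ctla4* and 18.3 CPM of *Cd226*. The highest *Pdcd1* of any clone, 1198 CPM (28 UMIs), was in an 11-cell clone without *Foxp3*+ cells in the library labelled WT, which also had the highest *Tigit* and *Lag3* (642 and 257 CPM) of that library's clones. This clone had 15 UMIs of the Treg marker *Ikzf2*, 1 cell in the conventional gate and 10 among other T cells. It gives the top of the *Tigit* range of the conventional clones labelled WT.

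Clones with under 5% *Foxp3*+ cells, called conventional clones here, had less *Cd226* in the library labelled dKO than in the library labelled WT. They overlapped with 1 clone of the latter in *Lag3* and with 1 other in *Havcr2*. The library labelled dKO had 4 such clones of at least 10 cells (25, 16, 14 and 10 cells). Of their 65 cells 17 were in the conventional gate and 46 among other T cells, and the clones had 12, 12, 1 and 6 UMIs of the Treg marker *Ikzf2*, whereas of 316 cells in the 14 clones labelled WT 177 were in the conventional gate. Of these 14, the 11-cell clone had 15 *Ikzf2* UMIs (642 CPM), with 1 cell in the conventional gate and 10 among other T cells. The others of the 14 had at most 6 *Ikzf2* UMIs. Each of the 4 clones labelled dKO had 0 *Foxp3*+ cells, *Lag3* between 175 and 923 CPM, *Havcr2* between 56.4 and 309.9 CPM and *Cd226* of at most 36.5 CPM. The 25-cell clone had 929.8 CPM of *Ctla4*, 602 CPM of *Lag3* (33 UMIs), 583 CPM of *Pdcd1* and 309.9 CPM of *Havcr2* (17 UMIs), with 65 *Cd4* UMIs, 0 *Cd8a* UMIs and 1 *Cd8b1* UMI. *Cd226* of the 4 clones (0 to 36.5 CPM) lay within the range of the *Foxp3*-rich clones of the same library (0 to 87.1 CPM), and their median *Lag3* was 526 CPM against 249 CPM. In all 4 clones there were 5 to 19 UMIs of *Eomes*, a regulator of cytotoxic and exhausted T cells, and of the clones with 5% to 20% *Foxp3*+ cells the 33-cell clone labelled dKO had 31, the 24-cell clone labelled WT 3 and the others 0. The 11-cell clone labelled WT had 257 CPM of *Lag3* and an 18-cell clone labelled WT had 85.7 CPM of *Havcr2*, both within the range of the 4 clones. None of the 11 *Foxp3*-rich clones of that library had an *Eomes* UMI, and of the 14 conventional clones labelled WT only the 51-cell clone had 1. These clones were singled out after their values were seen, and no test was run. Without every clone of at least 10 cells, *Lag3* and *Havcr2* were still called higher in conventional cells labelled dKO. The size of these ratios is not read, since conventional cells labelled WT held few UMIs of both genes.

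Other receptors of these families and the genes that act with the members were taken by list. Among 9 other receptors, 6 had enough UMIs in Tregs and conventional cells, and *Pvrig*, whose product shares the ligand CD112 with TIGIT, was higher in Tregs of both libraries (log2 1.29 and 1.69). In Tregs labelled dKO *Cd200r1* was also higher (1.07), and *Btla* (-1.25), *Cd96* (-1.15) and *Cd160* (-1.59) were lower. Between Tregs of the libraries *Pvrig* was higher in those labelled dKO (1.41) and *Btla* (-1.42), *Cd96* (-1.01) and *Cd160* (-1.41) lower.

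Of 14 signalling and traffic partners 0 were called higher and 1 lower in Tregs than in conventional cells labelled WT, *Themis* (-1.08). The library labelled dKO had 1 higher, *Lrba* (1.66), which keeps CTLA-4 from degradation, and 4 were lower, among them *Prkcq* (-1.53) and *Trat1* (-1.19), whose product promotes the transport of CTLA-4 to the cell surface. Between Tregs of the libraries 0 were higher and 4 lower, among them *Trat1* (-1.74) and *Grap2* (-1.55), an adaptor bound by CD28. Of 15 transcription regulators *Tox* (1.78 and 1.17) and *Tox2* (1.07 and 1.19), regulators linked to exhausted T cells, were higher in Tregs than in conventional cells of both libraries, with 1 and 3 regulators lower. Between the libraries *Nr4a1* (1.10), *Nr4a2* (1.22) and *Tox2* (1.30) were higher and *Tcf7* (-1.97) and *Bach2* (-1.18) lower in Tregs labelled dKO, and *Nr4a1* (1.17), *Tox2* (1.19) and *Eomes* (2.71) were higher in conventional cells labelled dKO. The share of all genes called in each comparison is given with the members above.

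Ligands were measured in the cells that were captured. *Cd80* had 40.7 and 79.6 CPM and *Cd86* 308 and 427 CPM in the 176 and 243 myeloid-like cells, and *Cd274*, which encodes PD-L1, 107 and 297 CPM. The plasmacytoid dendritic cell-like cells had 0 and 1.15 CPM of *Cd80*, 13.8 and 20.8 CPM of *Cd86* and 30.9 and 31.1 CPM of *Cd274*. Of 13 ligands on the list 10 had enough UMIs in Tregs and conventional cells, and 2 and 1 were called higher in Tregs and 0 lower (median log2 ratio 0.04 and 0.20). Between Tregs of the libraries 0 were higher and 2 lower in those labelled dKO (median -0.72). *Cd80* had 34.2 and 31.7 CPM in Tregs against 4.21 and 7.11 CPM in conventional cells, log2 ratios of 3.02 and 2.16. *Cd86* had 47.0 and 15.1 CPM in Tregs and 20.4 and 8.44 CPM in conventional cells. Both *Cd86* values of the library labelled dKO lie below the 20.8 CPM of its plasmacytoid dendritic cell-like cells. Whether they are expression or background was not tested. *Cd274* had 128 and 156 CPM in Tregs, and *Fgl1*, a ligand of LAG-3, had 0 UMIs in these gates.

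Over the 12 groups of T cells (6 gates in each library), 4535 genes were compared with each member by the correlation of log2(CPM + 10). Among the genes most like *Ctla4* were *Havcr2* (r = 0.98) and *Adap1* (0.98), and most like *Tigit* were *Tnfrsf4* (0.99), *Pglyrp1* (0.98) and *Dhrs7* (0.98). *Lag3* came closest to *Ebpl* (0.96), *Pdcd1* to *Il2rb* (0.97), *Havcr2* to *Ctla4* (0.98) and *Icos* to *Cpd* (0.96). *Cd28* was most like *Slc9a9* (0.95) and *Cd226* most like *Dock5* (0.98), and *Zfp683* was among the nearest 3 genes of both. Within the members *Ctla4* and *Tigit* had r = 0.95, *Cd28* and *Cd226* 0.92, and *Lag3* and *Cd28* -0.55. The groups share a library 6 at a time and share its depth, so these correlations describe likeness of pattern and carry no p.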

How the data were processed

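Hepatic CD4+ T cells of 1 library per genotype were measured by droplet RNA and T cell receptor sequencing with a 5′ kit. The authors deposited raw UMI counts per gene and cell, made with Cell Ranger on mm10 (version 7.0.1 per the file headers) and limited to called cells, and tables of assembled receptor contigs with UMI counts. Whether intronic reads were counted is not given in the sources used here. From the deposited counts, levels in CPM, ratios on the log2 scale and shares in percent were calculated here. The filters of the paper's methods (over 200 genes, below 5% mitochondrial UMIs) kept 10556 and 17462 cells. T cells had a receptor contig or at least 2 Cd3 UMIs, and under 3 UMIs of markers of other cells. Myeloid-like cells had at least 5 UMIs of *Lyz2*, *Csf1r*, *C1qa*, *C1qb* and *C1qc*. No cell has fewer than 500 UMIs. With 1 library per genotype no p-value was computed. A count of 0 allows up to 3 UMIs.

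Clonotypes were defined by the TRA and TRB CDR3 bases with the most UMIs. Clones with at least 20% *Foxp3*+ cells were set apart from conventional clones with under 5%. Genes were named by a rule: the 8 members, lists of 13 ligands, 9 other receptors, 14 signalling and traffic partners and 15 transcription regulators (*Ikzf2*, which the gates use, was left out, and 1 listed receptor was not found in the tables), the 3 genes most like each member among genes of at least 50 CPM, and the 3 largest clones of each library. Of the genes under this rule, 1 is not reported here. The members and lists were chosen with earlier results of these data known. Positions come from GENCODE M21 (GRCm38), which held 32158 of the genes. Doublets were kept in the values reported. Scrublet scores in scanpy 1.11.5 marked them for an alternative. Python 3.11.15 with numpy 2.4.6, scipy 1.17.1, pandas 2.3.3 and matplotlib 3.10.9 was used, and edgeR 4.0.16 in R 4.3.3 for TMM factors alone. The computation was tested on simulated data. The alternatives were other gates, a required TRB contig, removal of doublets, of cells of low ribosomal share, of the largest clone and of clonal sisters, no cell filter, TRB alone as the clonotype, TMM factors, averaging the CPM of single cells and another depth of thinning. Chosen after seeing the data were leaving out clones of at least 10 cells or shared barcodes, and conventional cells from clones without *Foxp3* or *Ikzf2*.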

Additional observations from a re-analysis of the deposited data

Results flagged for a closer look

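In 3 of 9 pairs of comparisons over the 8 members, a member moved in opposite directions with both intervals away from 0. The 9 pairs set Tregs over conventional cells, naive over conventional cells and cycling over non-cycling cells of each gate against each other between the libraries, the differences between libraries against each other among Tregs, conventional cells and naive cells, and cycling over non-cycling cells of both gates against each other within each library. The differences themselves were not tested, since each library is 1 sample. *Icos* was lower in Tregs labelled dKO than in Tregs labelled WT (log2 -0.13) and higher in conventional cells (0.24). It was also higher in naive cells labelled dKO (0.82), against the same -0.13 in Tregs. *Ctla4* in the library labelled dKO was lower in cycling Tregs than in Tregs (-0.34) and higher in cycling than in other conventional cells (0.21). The median of all genes tested was -0.17 and -0.03 in these comparisons. Outside these pairs, large clones against clones of 1 cell had *Cd226* at -2.23 and *Ctla4* at 0.18 in Tregs labelled dKO and at 0.71 and -0.63 in conventional cells labelled WT, with all 4 intervals away from 0. Those sets differ in both library and gate, and this difference was not tested either.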

How the results depend on the processing

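None of 19 calls on single members reversed in 11 planned settings and 3 chosen after seeing the data, and 11 stayed at least 2-fold wherever they had enough UMIs. Members under 2-fold did change sign: *Pdcd1* between conventional cells was -0.40 (-1.67 to 0.66) with those cells from clones without *Foxp3* or *Ikzf2*, in place of 0.80, and in Tregs of large clones *Havcr2* (-0.74 to 1.57), *Ctla4*, *Pdcd1*, *Icos* and *Cd28* crossed 0. No paired analysis was possible because each genotype has 1 library. With every other T cell without *Foxp3* and *Ikzf2* UMIs as conventional, members higher in Tregs of the library labelled dKO went from 4 to 1 (5.17% of all genes), and the Treg excess of *Tigit* per *Cd226* and of *Ctla4* per *Cd28* was 1.71 and 1.63 (log2). With a TRB contig required, 3 members in place of 5 were higher in Tregs labelled WT (4.66% of all genes), *Tigit* per *Cd226* was 2.72 and 2.67, and *Ctla4* per *Cd28* 2.47 and 1.98. With 1 cell per clonotype, 3 members were higher in Tregs labelled WT (4.67%) and 2 in place of 4 between conventional cells of the libraries (2.44%). There, large clones held 6 Tregs labelled dKO and 8 conventional cells labelled WT, with 3 and 2 members higher in place of 0, where 18.7% and 19% of all genes were higher and 46.9% and 41.7% lower. In that setting *Tigit* per *Cd226* was 2.36 in the library labelled dKO and *Ctla4* per *Cd28* 2.43 in the library labelled WT. With conventional cells from clones without *Foxp3* or *Ikzf2*, 3 members were higher in Tregs labelled WT (7.18%) and 2 between conventional cells (5.72%), *Tigit* per *Cd226* was 2.82 in the library labelled WT, and *Ctla4* per *Cd28* was 2.84 and 1.81. Without doublets (643 and 1472 T cells), *Tigit* per *Cd226* was 3.56 in the library labelled dKO and *Ctla4* per *Cd28* 2.83 and 2.48. With at least 2 *Foxp3* UMIs per Treg, *Ctla4* per *Cd28* was 2.84 in the library labelled WT. Without the largest clone, or with TRB alone, 1 member was higher in Tregs of large clones (4.94% and 2.89% of all genes). At 500 UMIs per cell, 3 in place of 6 members had a larger share in Tregs than in conventional cells labelled dKO with intervals apart. The cause of these shifts was not tested. Calls lost in a setting were *Pdcd1* (6 settings) in Tregs over conventional cells labelled WT, *Cd226* (2 settings in each comparison outside clones), *Ctla4* between conventional cells (1 cell per clonotype), and *Havcr2*, *Lag3* and *Tigit* in Tregs labelled dKO (every other T cell as conventional). Depth limits *Lag3* and *Havcr2* in Tregs and conventional cells labelled WT, with 16 to 30 UMIs per gate.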
